A study of Mus musculus with 30 samples.

Results

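The 10 endothelial genes followed in the fracture callus of the mouse tibia were *Pecam1*, *Cdh5*, *Esam*, *Kdr*, *Flt1*, *Tek*, *Tie1*, *Eng*, *Emcn* and *Vwf*. They were chosen by name as genes of the vessel wall, 10 of the 55416 gene IDs in the count table, and every one of them was read in all 30 libraries. The study asked what the loss of *Apex1*, a redox and DNA repair protein, in the limb mesenchyme does to bone repair, and RNA of the fracture callus was sequenced for this purpose at 3, 6, 10 and 14 days post fracture (dpf), with 1 library per mouse. At 3-dpf, per the study, the tissue was the tibia cut out around the break.

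KO mice carried Prrx1-Cre and floxed *Apex1* on both alleles (Prrx1-Cre+;Apex1 C/C, the P-Apex1KO mice of the study). Prrx1-Cre recombines in limb bud mesenchyme, and endothelial and blood cells, which have another origin, are not its target. WT mice were littermates of the genotypes Prrx1-Cre+/-;Apex1 C/+, Apex1 C/C or Apex1 C/+, so that WT may include mice with Cre and a deleted allele. All mice had a closed, non-stabilized fracture of the left tibial diaphysis, made at 7 to 12 weeks of age. There were 4 WT and 4 KO mice at 3-dpf, 5 and 3 at 6-dpf, 4 and 3 at 10-dpf, and 4 and 3 at 14-dpf. Both sexes were present in every group except KO at 14-dpf, which held 3 females, beside 1 female and 3 males in the WT group.

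Vessels regrow into the callus as cartilage is replaced by bone, and endothelial cells there are recognised by a small set of surface proteins. VE-cadherin (*Cdh5*) and ESAM hold neighbouring endothelial cells together, PECAM1 lies at the same contacts and is also carried by platelets and leukocytes. KDR and FLT1 are the receptors through which VEGF acts on these cells, TEK (TIE2) and TIE1 form the angiopoietin receptor pair, endoglin (*Eng*) is a coreceptor for BMP9 and TGF-β, endomucin (*Emcn*) is a sialomucin of capillaries and veins that marks type H vessels in bone, and von Willebrand factor (*Vwf*) is stored by endothelial cells and by megakaryocytes and platelets.

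All 10 are protein-coding genes, read over their exons. On GRCm39 the genes called in any genotype comparison were *Cdh5* (ENSMUSG00000031871) at chr8:104828231-104871143 on the plus strand, *Flt1* (ENSMUSG00000029648) at chr5:147498414-147662826 on the minus strand, *Kdr* (ENSMUSG00000062960) at chr5:76093487-76139884 on the minus strand, *Tie1* (ENSMUSG00000033191) at chr4:118328385-118347261 on the minus strand, *Eng* (ENSMUSG00000026814) at chr2:32535543-32574661 on the plus strand and *Vwf* (ENSMUSG00000001930) at chr6:125523737-125663642 on the plus strand. The summed exon length of the 10 genes ran from 3045 bases for *Esam* to 16729 bases for *Vwf*.

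The RefSeq table of promoters (build GRCm38.p6, 250 bases before to 50 bases after the annotated start) held 6 of the 10 genes, *Kdr*, *Flt1*, *Tek*, *Tie1*, *Emcn* and *Eng*. *Pecam1*, *Cdh5*, *Vwf* and *Esam* are not in it. The promoters of 4 genes are printed here, 5′ to 3′ on the strand of the gene. Of these, *Flt1*, *Kdr* and *Tie1* were called in a genotype comparison described below, and *Emcn* was not. The promoter of *Eng*, which was called too, is not printed. Capitals mark AGGAAG or its reverse complement CTTCCT, a word that contains the GGAA core bound by ETS factors such as ERG and FLI1, which endothelial cells use widely. *Flt1* lies at chr5:147725962-147726261 on the minus strand, *Tie1* at chr4:118489800-118490099 on the minus strand, *Emcn* at chr3:137340828-137341127 on the plus strand, and *Kdr* at chr5:75978406-75978705 on the minus strand.
Flt1: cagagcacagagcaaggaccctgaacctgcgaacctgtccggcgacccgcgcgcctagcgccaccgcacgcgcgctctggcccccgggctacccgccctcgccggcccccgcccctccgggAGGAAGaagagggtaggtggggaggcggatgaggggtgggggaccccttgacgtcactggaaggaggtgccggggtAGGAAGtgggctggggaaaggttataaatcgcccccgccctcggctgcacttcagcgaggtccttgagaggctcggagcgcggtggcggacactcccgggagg
Tie1: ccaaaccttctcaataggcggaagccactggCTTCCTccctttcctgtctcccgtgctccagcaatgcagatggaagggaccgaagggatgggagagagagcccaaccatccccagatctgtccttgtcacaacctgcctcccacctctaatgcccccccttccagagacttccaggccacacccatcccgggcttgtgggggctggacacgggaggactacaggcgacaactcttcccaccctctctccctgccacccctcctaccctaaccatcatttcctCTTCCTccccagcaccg
Emcn: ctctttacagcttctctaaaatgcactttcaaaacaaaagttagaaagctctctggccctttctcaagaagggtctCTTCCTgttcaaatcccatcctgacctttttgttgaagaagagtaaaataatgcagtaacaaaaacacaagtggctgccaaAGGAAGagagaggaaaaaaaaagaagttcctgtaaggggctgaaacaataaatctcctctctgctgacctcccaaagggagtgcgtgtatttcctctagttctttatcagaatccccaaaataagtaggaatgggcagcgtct
Kdr: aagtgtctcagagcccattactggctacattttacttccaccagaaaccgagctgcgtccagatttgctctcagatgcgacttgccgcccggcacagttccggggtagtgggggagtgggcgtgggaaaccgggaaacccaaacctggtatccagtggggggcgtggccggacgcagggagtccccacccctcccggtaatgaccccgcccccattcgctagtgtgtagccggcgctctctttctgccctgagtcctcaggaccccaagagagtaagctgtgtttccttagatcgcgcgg
The word was present in 4 of the 6 windows, those of *Flt1*, *Tie1*, *Emcn* and *Eng*, with 2 matches in each, and *Kdr* and *Tek* had none. It was present on either strand in 35.4% of the 32851 promoters of the table, so it is a common word. AGATAA or its reverse complement TTATCT, the core bound by GATA factors, was present in 1 of the 6, *Tek*, and in 11.2% of all promoters.

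Between 18334389 and 43111491 reads per library were counted on genes, and the count of a single member in a library ran from 477 to 8009, so the number of mice and not counting error limited the precision. Levels are given in CPM, the reads on a gene relative to all reads of its library, with TMM scaling over all 30 libraries. Differences are log2 fold changes of KO over WT with their standard error (SE), from edgeR's quasi-likelihood test at each time point with sex in the model, and a gene was called at a Benjamini-Hochberg adjusted p under 0.05 over all genes tested. In a bulk library, fewer endothelial cells and less RNA of these genes per endothelial cell cannot be told apart. *Apex1* itself, counted over the whole gene, ran from 26.5 to 33.1 CPM in WT libraries and from 18.4 to 34.6 CPM in the libraries labelled KO at 3-dpf (log2 fold change -0.15, SE 0.19, adjusted p = 0.927). At 6-, 10- and 14-dpf the KO libraries did not exceed 18.6 CPM, with adjusted p = 0.0071, 0.0278 and 0.367. Library names change between 6- and 10-dpf, and these pairs of time points were not compared with each other.

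At 3-dpf no member was called. All 10 had a positive log2 fold change, from 0.13 for *Pecam1* to 0.29 for *Tie1*, with a median of 0.20 beside 0 over all genes tested. For 0 of the 10 did all KO libraries lie below all WT libraries, beside 1.7% of all genes, and in every member the genotypes overlapped. None reached an unadjusted p under 0.05, the smallest being 0.0858 for *Tie1*, and DESeq2 also called 0. Of the 19866 genes tested, 0% were called lower and 0% higher by edgeR. The positive sign rested on the single KO female, replicate 3, which held the highest level of 9 of the 10 members among the KO libraries, all except *Emcn*: without it the median was -0.02 and 8 of 10 were below 0. *Vwf* was the most dispersed member, with 71.3, 139, 192 and 168 CPM in the KO libraries against 110, 120, 126 and 148 CPM in WT. KO replicate 1, the lowest of these, also held the lowest summed level of 12 megakaryocyte and platelet genes (477 CPM, against 901 to 1270 CPM in the other KO libraries) and the highest sum of 16 skeletal muscle genes (15800 CPM, against 6590 to 11500 CPM). The part of these cells in the *Vwf* value was not tested.

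In WT mice most of the endothelial genes were higher at 6-dpf than at 3-dpf. Per the study the 6-dpf tissue was the whole callus, and at 3-dpf it was the tibia around the break. Day and tissue taken cannot be told apart in this comparison. In a model of both time points with sex, 8 of the 10 were called higher at 6-dpf, all except *Tek* and *Vwf*, against 15.4% of all genes tested. *Tie1* rose most, by a log2 change of 0.69 (SE 0.18, adjusted p = 0.00823), from 45.9 ± 8.76 CPM (SD, n = 4) to 75.9 ± 9.25 CPM (SD, n = 5). *Flt1* rose by 0.54 (SE 0.14, adjusted p = 0.00893), *Kdr* by 0.43 (SE 0.12, adjusted p = 0.014) and *Emcn* by 0.47 (SE 0.14, adjusted p = 0.0196). *Tek*, the partner of *Tie1*, had a log2 change of 0.26 (SE 0.16, adjusted p = 0.246), and *Vwf* had 0.07 (SE 0.21, adjusted p = 0.838). The count depended on single WT libraries: it was 2 without 3-dpf replicate 3, 3 without 3-dpf replicate 2, 4 without 6-dpf replicate 4 and 5 without 3-dpf replicate 4 or 6-dpf replicate 5, and *Flt1* and *Tie1* were called each time. It was also 2, the same pair, with the replicate number as a block, and 1, *Tie1*, with scaling by library size alone, which moves the median of all genes to -0.27.

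In KO mice 0 of the 10 were called over the same interval, with log2 changes from -0.09 to 0.26, no unadjusted p under 0.05 and 0 calls by DESeq2, beside 7.1% of all genes called higher. The change in KO was nevertheless not shown to differ from that in WT. The test of the change of the genotype difference called 0 of 10, by edgeR and by DESeq2, beside 1.3% of all genes, and 2 members had an unadjusted p under 0.05, *Flt1* (-0.61, SE 0.21, adjusted p = 0.213) and *Emcn* (-0.55, SE 0.21, adjusted p = 0.265).

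At 6-dpf itself no member was called either, beside 5.61% of all genes lower and 5.31% higher in KO. The median log2 fold change was -0.19, against 0.01 over all genes, and 8 of 10 were below 0. *Flt1*, the decoy and signaling receptor for VEGF, was the only member with an unadjusted p under 0.05 (-0.38, SE 0.16, adjusted p = 0.174). Its WT libraries held 86.7, 61.7, 78.4, 87.4 and 90.7 CPM and its KO libraries 55.1, 74.6 and 51.1 CPM, so that the highest KO library lay above the lowest WT library. That library, KO replicate 2, was the highest KO library for all 10 members. It held 225 CPM of *Cdh5* and 91.7 CPM of *Tie1*, against 118 to 146 CPM and 47.4 to 58.5 CPM in the other KO libraries. Without it, 5 members were called lower, *Cdh5*, *Kdr*, *Flt1*, *Tie1* and *Emcn*, with a median of -0.40, beside 1245 of the 19931 genes tested. Without KO replicate 1 or 3 none was called by edgeR, none had an unadjusted p under 0.05, and the medians were -0.07 and -0.04. With scaling by library size alone, which moves the median of all genes to 0.20, the median of the members was -0.01 with 5 of 10 below 0.

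The 6-dpf libraries differed by genotype in other tissues as well. Of 16 skeletal muscle genes, 14 were called higher in KO, and their sum ran from 9830 to 22400 CPM in KO and from 4190 to 7600 CPM in WT, with the highest value in KO replicate 2. All 14 cartilage genes were called lower, with a sum from 3270 to 6270 CPM in KO and from 37200 to 66100 CPM in WT. Of 10 macrophage genes, 7 were called higher (sum 1130 to 1290 CPM in KO, 629 to 791 CPM in WT). Of 11 osteoblast genes, 10 were called lower (sum 18400 to 28400 CPM in KO, 39300 to 54700 CPM in WT). The part of muscle, cartilage, macrophage or osteoblast RNA in the endothelial values was not tested.

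**Figure D1:**
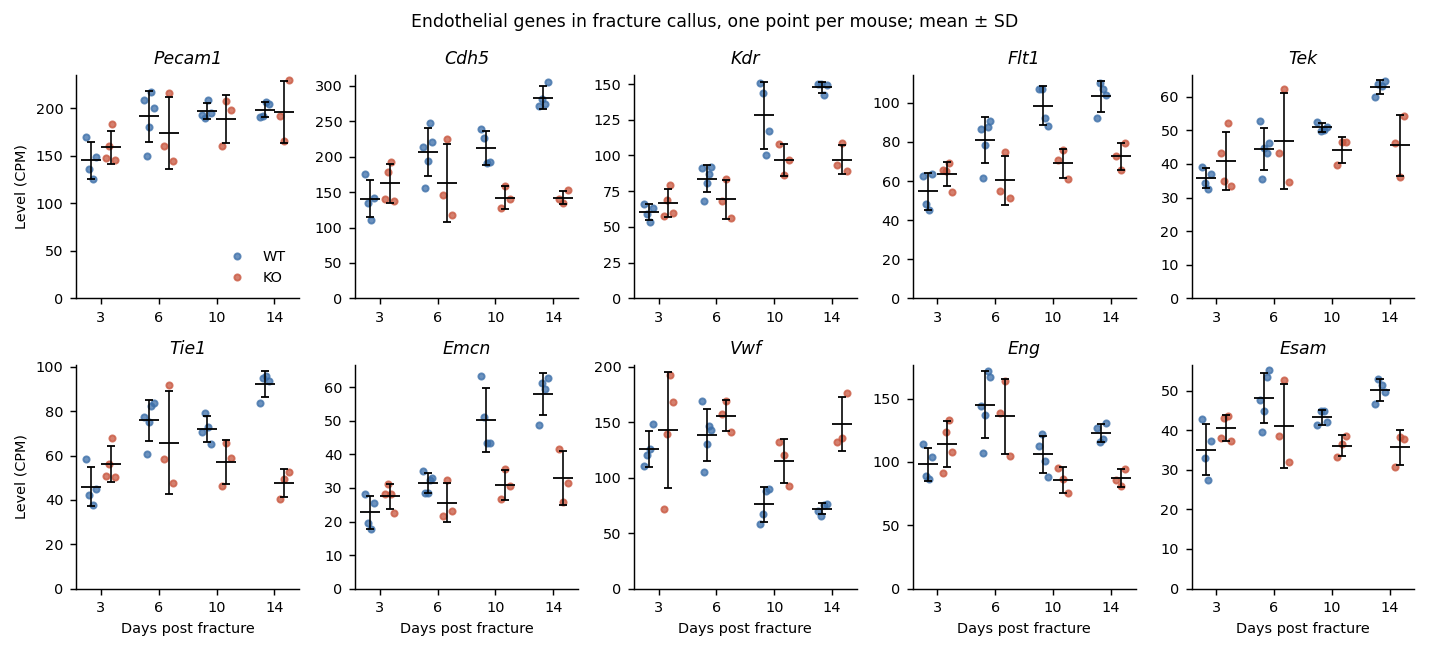
Level of each endothelial gene in CPM (vertical axes, from 0) at 3, 6, 10 and 14 days post fracture (horizontal axes) in WT (blue) and KO (red) mice; each point is 1 mouse, and black marks give the mean ± SD. At 14-dpf the KO points lie below the WT points in 8 panels, above them for *Vwf*, and among them for *Pecam1*.

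At 10-dpf *Cdh5* and *Flt1* were called lower in KO, 2 of the 10 members, beside 3.44% of all genes tested, and no member was called higher, beside 3.01%. A log2 fold change below 0 was found in 9 members and the median was -0.29, against 0 over all genes. *Cdh5*, the VE-cadherin gene, stood at 239, 227, 191 and 192 CPM in WT and at 127, 159 and 140 CPM in KO. The groups did not overlap, and the log2 fold change was -0.55 (SE 0.12, adjusted p = 0.0329). *Flt1* stood at 107, 107, 92.1 and 87.9 CPM in WT and at 70.5, 75.7 and 61.2 CPM in KO. Here too every KO library lay below every WT library (-0.47, SE 0.10, adjusted p = 0.0296).

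*Emcn* had the largest fall in point estimate among the members, but it missed the threshold. Its WT libraries held 63.5, 51.1, 43.4 and 43.3 CPM and its KO libraries 26.7, 35.6 and 30.6 CPM (-0.65, SE 0.16, adjusted p = 0.0518). The groups did not overlap, and within WT the females held the higher values, while the KO female, replicate 1, was the lowest KO library. The value was -0.39 without KO replicate 1 and ran down to -0.78 without KO replicate 2, and *Emcn* was called without KO replicate 2 or WT replicate 4. *Kdr*, the main signaling receptor for VEGF, showed the same order of the sexes in WT, with 151 and 144 CPM in females and 100 and 117 CPM in males. In KO its female was the highest, with 108 CPM, against 86 and 96.6 CPM in males (-0.32, SE 0.09, adjusted p = 0.0672). With sex left aside its genotypes overlapped, while within either sex KO lay below WT.

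The other members were not called. *Tie1* (-0.35, SE 0.13), *Esam* (-0.27, SE 0.08), *Eng* (-0.24, SE 0.09) and *Tek* (-0.21, SE 0.08) had adjusted p between 0.0861 and 0.156. *Pecam1* stood at 193, 190, 209 and 195 CPM in WT and at 160, 207 and 198 CPM in KO, which overlap (-0.09, SE 0.08, adjusted p = 0.578). KO libraries lay wholly below WT for 5 members, *Cdh5*, *Flt1*, *Tek*, *Emcn* and *Esam*, beside 10.5% of all genes. The medians within a sex, as log2 ratios of mean CPM, were -0.42 for females (2 WT, 1 KO) and -0.22 for males (2 WT, 2 KO).

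The calls at 10-dpf rested on few mice. Without KO replicate 1, KO replicate 3, WT replicate 1 or WT replicate 2, neither *Cdh5* nor *Flt1* was called, with *Cdh5* between -0.65 and -0.36 and *Flt1* between -0.57 and -0.40 over all such omissions, and 1 omission, of KO replicate 3, called *Vwf* higher. DESeq2 called 4 lower, adding *Kdr* and *Emcn*, and *Vwf* higher, beside 990 of 18910 genes lower and 1197 higher.

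At 14-dpf *Cdh5*, *Kdr*, *Tie1* and *Eng* were called lower in KO, 4 of the 10 members, beside 7.04% of all genes tested. *Vwf* was called higher, 1 of 10, beside 4.28%. The median of the members was -0.45, against 0.04 over all genes, and KO libraries lay wholly below WT for 8 members, beside 23.8% of all genes, and wholly above for *Vwf*, beside 18.5%.

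**Figure D2:**
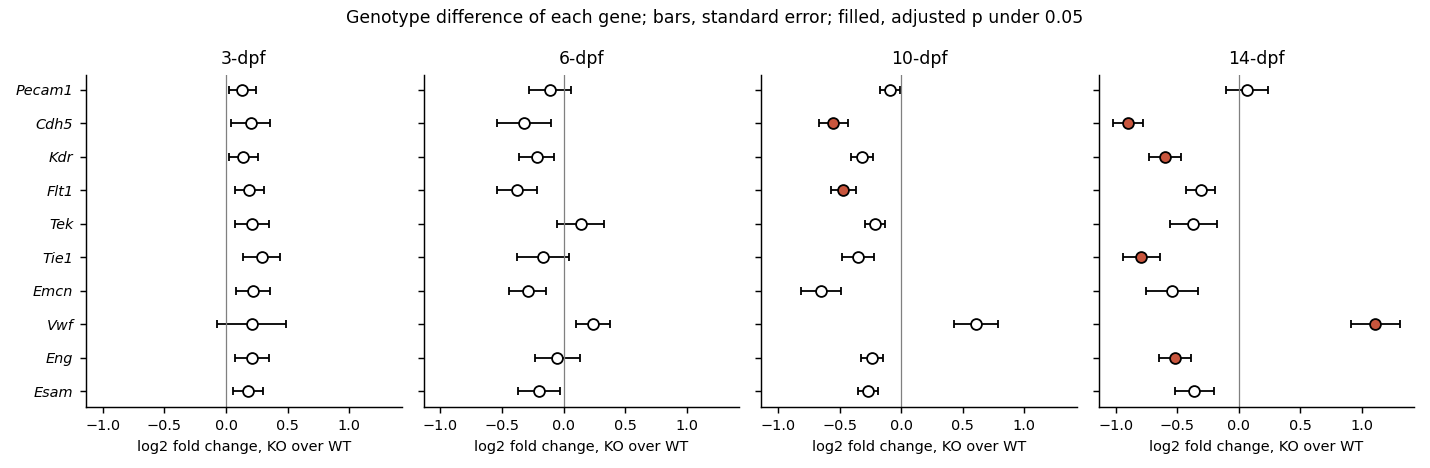
Log2 fold change of KO over WT (horizontal axes) for each endothelial gene at each time point; bars give the standard error, and filled points mark an adjusted p under 0.05. At 3-dpf all points lie above 0 and none is filled, at 10-dpf *Cdh5* and *Flt1* are filled below 0, and at 14-dpf 4 genes are filled below 0 and *Vwf* is filled at 1.11.

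Among the junction and adhesion genes the members parted at 14-dpf. *Cdh5* held 271, 282, 274 and 306 CPM in WT and 140, 134 and 153 CPM in KO, the clearest gap of the members. Its log2 fold change was -0.90 (SE 0.12, adjusted p = 0.00387), or 0.536 of the WT level. *Esam* ran from 46.7 to 53.1 CPM in WT and from 30.7 to 38.4 CPM in KO (-0.36, SE 0.16, adjusted p = 0.184), groups that do not overlap.

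*Pecam1* did not follow. It held 191, 192, 206 and 204 CPM in WT and 192, 165 and 230 CPM in KO, which surround the WT values (0.07, SE 0.17, adjusted p = 0.838). The ratio of *Cdh5* to *Pecam1* within a library hardly depends on how libraries are scaled. On the log2 scale it ran from 0.41 to 0.58 in WT and from -0.59 to -0.30 in KO at 14-dpf. At 10-dpf it ran from -0.13 to 0.31 in WT and from -0.50 to -0.34 in KO, again without overlap, whereas at 3-dpf it ran from -0.18 to 0.04 and from -0.09 to 0.16.

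Of the VEGF receptors, *Kdr* was lower in KO at 14-dpf and *Flt1* was not called. *Kdr* held 150, 150, 142 and 149 CPM in WT and 93.3, 109 and 89.2 CPM in KO. The groups were well apart (-0.60, SE 0.13, adjusted p = 0.0255). *Flt1* held 92, 110, 107 and 104 CPM in WT and 72.9, 65.7 and 79.5 CPM in KO. These groups were apart too, but the WT female was the lowest WT mouse, and with sex in the model the log2 fold change was -0.31 (SE 0.12, adjusted p = 0.148). The log2 ratio of *Flt1* to *Kdr* within a library overlapped between genotypes on every day. At 14-dpf it ran from -0.70 to -0.41 in WT and from -0.73 to -0.17 in KO, so a difference between the 2 receptors was not shown.

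Of the angiopoietin receptors, *Tie1* fell and *Tek* was not called. *Tie1* held 83.6, 95.2, 96.1 and 93.7 CPM in WT and 40.6, 49.3 and 52.8 CPM in KO (-0.79, SE 0.15, adjusted p = 0.0167). The highest KO library lay far below the lowest WT library. *Tek* held 60, 63.8, 63.2 and 64.7 CPM in WT and 46.2, 36.2 and 54.2 CPM in KO, lower in all 3 KO libraries but with a wide KO spread (-0.37, SE 0.19, adjusted p = 0.251).

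*Eng* held 127, 116, 118 and 131 CPM in WT and 85.8, 80.7 and 94.8 CPM in KO, without overlap (-0.52, SE 0.13, adjusted p = 0.0393). *Emcn* held 48.8, 61.2, 59.5 and 62.9 CPM in WT and 41.6, 25.9 and 31.4 CPM in KO. The WT female was again the lowest of its group, and the difference was -0.54 (SE 0.21, adjusted p = 0.142).

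Because KO held females only at 14-dpf, the difference with sex in the model rests on the 1 WT female, and leaving this mouse out leaves genotype and sex confounded. Its values nevertheless lay outside the KO range for 9 members, the exception being *Pecam1*. Without a sex term, 8 members were called lower, all except *Pecam1* and *Vwf*, and *Vwf* higher, and the same 9 were called when all 30 libraries were fitted together. Calls rose over all genes too. Without a sex term 3382 of 18410 genes were called lower and 3467 higher, and with all 30 libraries 3569 and 2619 of 20642. The fit with sex called 1424 and 865 of 20228. With scaling by library size alone, which moves the median of all genes to 0.31, *Cdh5* and *Tie1* were called lower and *Vwf* higher. *Cdh5* was called without any one of the other mice, and *Tie1* without any except WT replicate 2, while *Kdr* and *Eng* were not called without WT replicate 2, 3 or 4, and *Eng* not without KO replicate 1.

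*Vwf* moved against the other members. At 14-dpf it held 70.1, 65.6, 75.4 and 76.3 CPM in WT and 132, 136 and 176 CPM in KO, so that the lowest KO library lay well above the highest WT library. The log2 fold change was 1.11 (SE 0.20, adjusted p = 0.0127), or 2.15-fold. At 10-dpf it held 58.5, 66.7, 88.2 and 89.6 CPM in WT and 132, 120 and 92.6 CPM in KO, all KO libraries above all WT libraries, beside 8.8% of all genes (0.61, SE 0.18, adjusted p = 0.0985). The 10-dpf value depended on KO replicate 1, without which it was 0.25, and ran up to 0.78 without KO replicate 3. *Vwf* was called at 14-dpf under every alternative and every omission of 1 mouse that could be fitted. The log2 ratio of *Vwf* to *Cdh5* within a library ran from -2.10 to -1.86 in WT and from -0.09 to 0.20 in KO at 14-dpf.

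*Vwf* is not made by endothelium alone, and megakaryocyte and platelet genes were higher in the same libraries. Of 12 such genes, 7 were called higher and 1 lower in KO at 14-dpf, with a median of 1.27. *Ppbp*, a platelet chemokine, went from 102 ± 10.8 CPM (SD, n = 4) to 243 ± 32.3 CPM (SD, n = 3), by 1.51 (SE 0.17, adjusted p = 0.00233). *Gp6*, the platelet collagen receptor, rose by 1.56 (SE 0.29, adjusted p = 0.0141). The one that fell, *Itgb3* (-1.04, SE 0.13, adjusted p = 0.00353), is also an osteoclast integrin. Its level was 667 ± 46.0 CPM (SD, n = 4) in the WT mice against 309 ± 27.7 CPM (SD, n = 3) with KO, and the sum of the whole list ran from 842 to 980 CPM in WT and from 751 to 845 CPM in KO.

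Without *Itgb3*, an omission chosen after the values were seen, the 11 other genes summed to 193 to 248 CPM in WT and 410 to 552 CPM in KO at 14-dpf, and to 161 to 352 and 355 to 479 CPM at 10-dpf. No gene of the list was at 0 in any library. The log2 ratio of *Vwf* to *Itga2b*, the platelet integrin subunit, overlapped between genotypes at every time point, from 0.65 to 0.88 in WT and from 0.59 to 1.17 in KO at 14-dpf. The part of megakaryocytes and platelets in the *Vwf* difference was not tested.

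**Figure D3:**
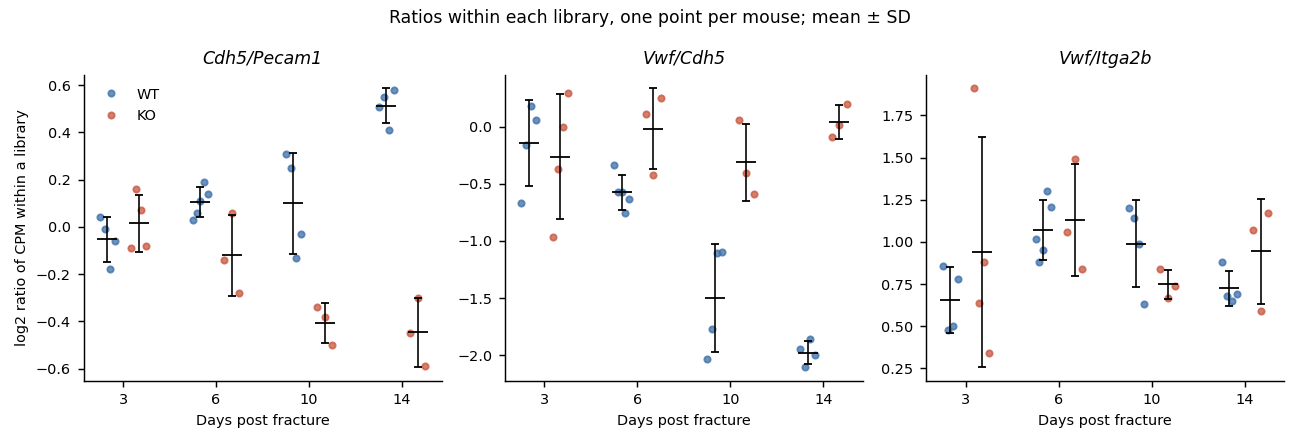
Log2 ratio of the CPM of a pair of genes within a library (vertical axes) against days post fracture (horizontal axes) in WT (blue) and KO (red); each point is 1 mouse, with the mean ± SD in black. The ratios of *Cdh5* to *Pecam1* and of *Vwf* to *Cdh5* separate the genotypes at 10- and 14-dpf, and the ratio of *Vwf* to the platelet gene *Itga2b* overlaps at every time point.

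From 10- to 14-dpf, *Cdh5* was the only member called as changed in WT mice, 1 of 10, beside 6.19% of all genes called higher. It rose by 0.41 on the log2 scale (SE 0.10, adjusted p = 0.0173), to 283 ± 15.7 CPM (SD, n = 4). *Eng* (0.26, adjusted p = 0.0711), *Kdr* (0.28, adjusted p = 0.0832), *Tie1* (0.31, adjusted p = 0.099) and *Tek* (0.27, adjusted p = 0.112) had log2 changes of the same sign. The *Cdh5* call was lost without WT 10-dpf replicate 3 or 4 or WT 14-dpf replicate 4. In KO 0 of 10 were called by edgeR and by DESeq2, beside 0.0304% of all genes called higher, and 1, *Vwf*, had an unadjusted p under 0.05 (0.44, SE 0.19, adjusted p = 0.314). The genotype difference was not shown to change between these days: 0 of 10 were called by edgeR and by DESeq2, beside 0.436% of all genes. The number of members with an unadjusted p under 0.05 was 5 there, *Cdh5*, *Kdr*, *Tie1*, *Eng* and *Vwf*, with adjusted p from 0.268 to 0.37.

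The order of the members was compared per length, as CPM per kb of exon. In WT at 14-dpf *Cdh5* was far above the rest at 64.6 CPM per kb, with *Pecam1* next at 19.8. *Tie1* (18.4), *Esam* (16.5), *Kdr* (16.1) and *Eng* (15.8) followed, and from *Pecam1* to *Eng* each neighbour overlapped the next in its range over libraries. *Tek* (10.5) was apart from both neighbours, *Emcn* (8.80) and *Flt1* (7.55) overlapped, and *Vwf* was lowest at 4.29. In KO at 14-dpf *Cdh5* stood at 32.6 and *Pecam1* at 19.6, still apart. *Vwf* had moved to the seventh place at 8.84, and *Emcn* was last at 5.00, overlapping *Flt1* at 5.32.

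Relative to the mean of the other 9 members on the log2 scale, the members thus did not shift as 1 block. At 14-dpf *Vwf* (1.63 higher in KO) and *Pecam1* (0.46 higher) lay above, and *Cdh5* (-0.61) and *Tie1* (-0.58) below the WT range in every KO library. *Kdr*, *Flt1*, *Tek*, *Emcn*, *Eng* and *Esam* overlapped, with shifts between -0.44 and -0.05. Over the deviations of the 30 libraries from their 8 group means, *Cdh5* followed the mean of the other 9 most closely (Pearson r = 0.95) and *Vwf* least (r = 0.26), with the rest between 0.61 and 0.87; these r describe likeness among libraries that share their scaling.

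The genes most like the mean of the 10 members were sought among 15883 others with a mean of at least 1 CPM. Over the 30 libraries they were *Mmrn2* (r = 0.92), *Lrrc8a* and *Col4a2* (both 0.91), *Uaca*, *Fgd5*, *Notch3* and *Arhgef15* (each 0.90), and *Col4a1*, *Aplnr* and *Sox7* (each 0.89). *Mmrn2* codes for an endothelial matrix protein, *Col4a1* and *Col4a2* for the chains of basement membrane collagen IV, and *Notch3* for a receptor of mural cells. Over deviations from the group means they were *Col4a2* and *Plvap* (both 0.92), *Ece1* and *Col4a1* (both 0.91), *Mmrn2* (0.90), *Podxl* (0.88), *Pip4k2b* (0.87), and *Pcdh1*, *Ncstn* and *Aplnr* (each 0.86). *Col4a1*, *Col4a2*, *Mmrn2* and *Aplnr* stood in both.

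A list of 28 other endothelial genes was read beside the members. At 3-dpf 0 were called and the median was 0.15. At 6-dpf 1 of the 28 was called lower, beside 5.61% of all genes. It was *Erg*, an ETS factor of endothelium, whose level was 73.6 ± 14.3 CPM (SD, n = 5) in the WT mice against 41.6 ± 5.42 CPM (SD, n = 3) with KO (-0.79, SE 0.16, adjusted p = 0.017). At 10-dpf 3 were called lower (*Plvap*, *Arhgef15* and *Rasip1*) and 1 higher (*Palmd*) with a median of -0.24, and at 14-dpf 11 lower and 1 higher with a median of -0.41, against 0.04 over all genes. Over all genes 3.44% were called lower and 3.01% higher at 10-dpf, and 7.04% and 4.28% at 14-dpf. The largest falls at 14-dpf were in *Sox18* (-1.19, SE 0.18, adjusted p = 0.0062), a transcription factor of vessels, and *Plvap* (-1.04, SE 0.22, adjusted p = 0.0254), the diaphragm protein of fenestrated capillaries. The most abundant genes of the list, *Cd93* (-0.19, adjusted p = 0.311) and *Ptprb* (-0.07, adjusted p = 0.785), were not called. For *Cd93* the KO libraries nevertheless lay wholly below WT (291 ± 17.3 against 377 ± 26.9 CPM, SD), while for *Ptprb* the genotypes overlapped, as for *Pecam1*. *Bmx*, a kinase of endothelium and of myeloid cells, was the 1 called higher and is named after its value was seen (0.96, SE 0.23, adjusted p = 0.0347).

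**Figure D4:**
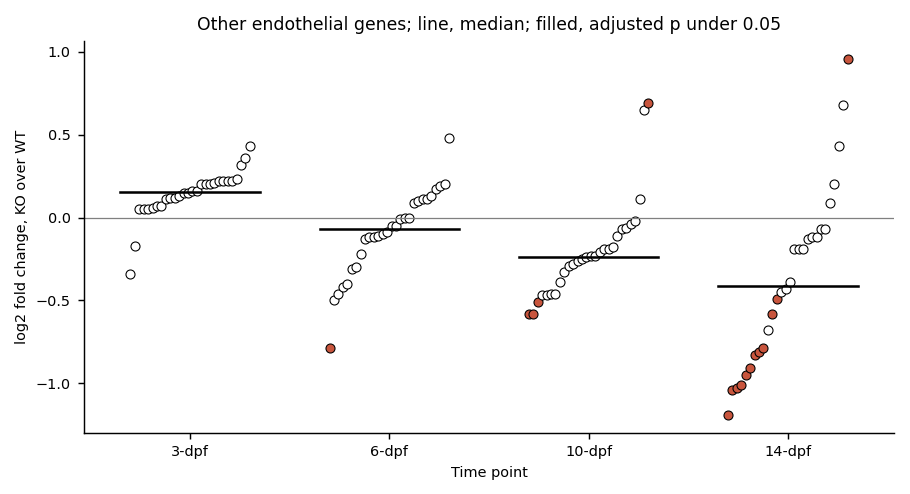
Log2 fold change of KO over WT (vertical axis) of 28 further endothelial genes at each time point; each point is 1 gene, the line is the median, and filled points mark an adjusted p under 0.05. The medians are 0.15, -0.07, -0.24 and -0.41 at 3-, 6-, 10- and 14-dpf.

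Of the ligands of KDR and FLT1, *Vegfa* and *Pgf* were called lower in KO. *Vegfa*, the main ligand of KDR and FLT1, at 6-dpf measured 94.9 ± 12.8 CPM (SD, n = 5) in the WT mice against 51.4 ± 2.82 CPM (SD, n = 3) with KO (-0.81, SE 0.11, adjusted p = 0.00278), and at 126 ± 3.18 CPM (SD, n = 4) and 71.6 ± 2.70 CPM (SD, n = 3) at 10-dpf (-0.80, SE 0.07, adjusted p = 0.00377). At 14-dpf it was 77.7 ± 6.60 and 79.9 ± 15.7 CPM, with no call (0.26, SE 0.18, adjusted p = 0.386). *Pgf*, a ligand of FLT1 alone, was lower at 10-dpf (-1.24, SE 0.15, adjusted p = 0.00798) and 14-dpf (-1.55, SE 0.23, adjusted p = 0.00592). *Apln*, the apelin gene of sprouting endothelium, whose receptor is not among the 10 members, was lower at 6-dpf (-0.97, SE 0.19, adjusted p = 0.0153) and 10-dpf (-0.56, SE 0.11, adjusted p = 0.0294).

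*Vegfd*, a ligand of the related receptor FLT4, was higher at 6-dpf (0.68, SE 0.18, adjusted p = 0.037). *Vegfc*, another FLT4 ligand, was at 0.66 (SE 0.21, adjusted p = 0.073) at 6-dpf and at -1.36 (SE 0.48, adjusted p = 0.118) at 14-dpf, and neither it nor *Vegfb*, a ligand of FLT1, was called on any day. The angiopoietins *Angpt1*, *Angpt2* and *Angpt4*, ligands of TEK, were not called on any day, with *Angpt2* at -0.70 (SE 0.29, adjusted p = 0.169) and *Angpt4* at -1.26 (SE 0.37, adjusted p = 0.0715) at 14-dpf. *Gdf2* and *Bmp10*, ligands of the endoglin receptor complex, were too low to be tested. Of the 9 ligands tested, *Apln* included, 2 were called lower and 1 higher at 6-dpf, 3 lower at 10-dpf and 1 lower at 14-dpf. Of all genes, 5.61%, 3.44% and 7.04% were called lower on these days, and 5.31% higher at 6-dpf.

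Of 13 receptors and transducers that act with the members, 2, 4 and 5 were called lower at 6-, 10- and 14-dpf and none higher. The shares of all genes called lower were 5.61%, 3.44% and 7.04%. The adaptors *Grb10* (-1.21, SE 0.20, adjusted p = 0.00622) and *Gab1* (-0.65, SE 0.13, adjusted p = 0.0149) were those called at 6-dpf, and *Gab1* was lower at 10-dpf too (-0.56, SE 0.09, adjusted p = 0.0173). *Nrp2*, a VEGF coreceptor that mesenchymal cells also express, had the largest fall at 14-dpf, from 1250 ± 82.1 CPM (SD, n = 4) to 432 ± 83.0 CPM (SD, n = 3), by -1.59 (SE 0.18, adjusted p = 0.00244). *Plcg1*, a transducer of KDR, was lower at 10-dpf (-0.34, SE 0.08, adjusted p = 0.0416) and 14-dpf (-0.69, SE 0.11, adjusted p = 0.00879). *Smad1* (-0.87, SE 0.17, adjusted p = 0.0185) and *Smad5* (-0.55, SE 0.11, adjusted p = 0.0181), which carry endoglin signals among other BMP signals, were lower at 14-dpf, and so was *Flt4* (-0.66, SE 0.15, adjusted p = 0.0326). Bulk libraries do not tell which callus cells the transcripts of these receptors and transducers came from.

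Lists of vessel types did not all move with the members. Over all genes, 5.61%, 3.44% and 7.04% were called lower at 6-, 10- and 14-dpf, and 5.31%, 3.01% and 4.28% higher. These shares stand beside all list counts that follow. Of 15 arterial and tip cell genes, 5 were called lower and 2 higher at 6-dpf, when no member was called, and 5 lower and 1 higher at 10-dpf. Their sum at 6-dpf ran from 462 to 633 CPM in KO and from 654 to 851 CPM in WT. At 14-dpf 4 were lower and 1 higher (median -0.39). The largest falls then were in *Hey1* (-3.26, SE 0.17, adjusted p = 0.000354), a NOTCH target of arteries that bone cells express too, and *Unc5b* (-2.01, SE 0.13, adjusted p = 0.000534), a netrin receptor of tip cells. Of 11 venous and sinusoidal genes, 0 were lower and 4 higher at 6-dpf, and 2 lower and 5 higher at 10-dpf. At 14-dpf 2 were lower and 2 higher. On that day *Aplnr*, the apelin receptor, fell by 1.45 on the log2 scale (SE 0.16, adjusted p = 0.00197) and *Ackr1*, the venular chemokine receptor, rose by 1.26 (SE 0.32, adjusted p = 0.0429). Of 5 endothelial adhesion genes of inflammation, which include the P-selectin gene *Selp*, 4 were higher at 6-dpf, 3 at 10-dpf and 1 at 14-dpf. *Selp*, *Vcam1* and *Ackr1* stand in the venous and sinusoidal list as well, so the counts of these lists are not independent.

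Of 7 lymphatic endothelial genes, 4 were higher at 6-dpf, and at 14-dpf 1 was lower and 2 higher, *Reln* by 1.92 (SE 0.29, adjusted p = 0.0072) and *Mmrn1* by 1.02 (SE 0.17, adjusted p = 0.00986). *Mmrn1* is also a platelet gene. Of 8 capillary lipid handling genes, *Gpihbp1*, which anchors lipoprotein lipase in capillaries, was the 1 called at 14-dpf (-1.47, SE 0.27, adjusted p = 0.0136), and the median of the list was 0.36. *Fabp4*, a fatty acid carrier of capillaries and fat cells, was the 1 called at 6-dpf (0.67, SE 0.15, adjusted p = 0.0231). At 10-dpf it was higher again (0.77, SE 0.13, adjusted p = 0.0192), as was the fatty acid receptor *Cd36* (0.92, SE 0.19, adjusted p = 0.037), 2 of the 7 tested. Of 14 mural cell genes, 3 were lower and 1 higher at 10-dpf and 3 lower at 14-dpf. *Pdgfrb*, a receptor that pericytes share with other mesenchyme, was lowest at 14-dpf at -1.33 (SE 0.13, adjusted p = 0.00117), while the median of the list was 0.41 with 5 of 14 genes below 0.

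Lists of non-vascular cells differed in the libraries in which the members did. At 10-dpf 8 of 11 osteoblast genes were lower (sum 20100 to 30400 CPM in KO, 45500 to 64000 CPM in WT) and 5 of 10 macrophage genes higher (710 to 826 CPM in KO, 583 to 721 CPM in WT). The 16 muscle genes had a median of 1.41 at 10-dpf (4440 to 9980 CPM in KO, 1660 to 5120 CPM in WT) and the 14 cartilage genes one of -0.12 (15800 to 26400 CPM in KO, 20600 to 52500 CPM in WT). At 14-dpf 7 of 11 osteoblast genes were lower (sum 19100 to 21900 CPM in KO, 75900 to 102000 CPM in WT). With sex in the model 12 of 14 cartilage genes were higher and 2 lower (6320 to 7360 CPM in KO, 4710 to 9730 CPM in WT). These cartilage calls rest on the 1 WT female, which held the lowest sum. Its mean log2 CPM of the cartilage genes was 5.29, against 7.09 to 7.61 in the WT males and 7.60 to 8.01 in KO. Of 10 macrophage genes, 5 were higher and 2 lower (848 to 982 CPM in KO, 977 to 1140 CPM in WT). None of the 16 muscle genes was called at 14-dpf, with sums from 4480 to 15900 CPM in KO and from 1780 to 6450 CPM in WT, the highest WT sum being that of the female. No gene of these 4 lists was at 0 in a 10- or 14-dpf library, and the part of these cells in the endothelial values was not tested.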

How the data were processed

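Callus RNA of 30 mice, depleted of rRNA and beta globin transcripts, was sequenced from stranded libraries. The authors deposited raw read counts per gene without normalization. Per the labels and the study's methods, reads were aligned to mm39 with STAR 2.7.0d, and uniquely mapped, reverse-stranded reads were counted with featureCounts (Rsubread 2.4.3) on an Ensembl annotation, so antisense genes that overlap *Cdh5*, *Kdr*, *Flt1*, *Tie1*, *Vwf* and *Eng* were counted apart. *Eng* also overlaps 3 small RNA genes on its own strand, which strand does not separate. Symbols, positions and exon lengths were taken from GENCODE M39 on GRCm39, which held 54749 of the 55416 gene IDs. Groups and sex came from the labels.

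Genotype and sex were fitted at each time point by robust quasi-likelihood in edgeR 4.0.16 under R 4.3.3 (low counts removed by filterByExpr, scaling by TMM, Benjamini-Hochberg adjustment, threshold 0.05). Pairs of time points were fitted with 4 groups and sex. SE is the size of the log2 fold change over the square root of F. Log2 ratios and likeness used log2 CPM with a prior count of 2. Nothing in the labels says more of the replicates than that each is a mouse of its own. No libraries of a group were duplicates. The members and all gene lists were chosen with earlier results of these data known. Some genes stand in several lists. All members are given, and of the other lists the 2 genes with the largest change among those called and the most abundant ones, ligands and signaling genes that were called or belong to a member receptor, and the 10 genes most like the members. Alternatives were DESeq2 1.42.0, no sex term, other scalings and filters, all libraries in one model, a replicate block, each mouse left out, and, chosen after the data were seen, 10- and 14-dpf in one model. The fits were tested on simulated data.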

Additional observations from a re-analysis of the deposited data

Results flagged for a closer look

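*Kdr* in WT 14-dpf replicate 3 stood at 142 CPM, apart from the other 3 WT mice of that day, which held 149 to 150 CPM. The distance is small in size, since the group is tight. It was the 1 such sample among 50 groups of 4 or 5 mice examined, where chance alone sets a sample apart in about 1 of 20 groups.

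For 3 members every KO mouse lay on the opposite side of the WT mean at 3-dpf and at a later day, as mean log2 differences from the WT mean of the day. *Flt1* was at 0.23 at 3-dpf and at -0.43, -0.51 and -0.51 at 6-, 10- and 14-dpf. *Tie1* was at 0.30 at 3-dpf and at -0.35 and -0.96 at 10- and 14-dpf. *Esam* was at 0.22 at 3-dpf and at -0.27 and -0.50 at 10- and 14-dpf. These differences leave sex aside. Within males at 3-dpf (2 WT, 3 KO) the log2 ratios of mean CPM were -0.03 for *Flt1*, 0.02 for *Tie1* and -0.02 for *Esam*. Within females (2 WT, 1 KO) they were 0.57, 0.75 and 0.53, so the positive values at 3-dpf rested on 1 KO female. Between 3- and 6-dpf the change of the *Flt1* difference was tested in the report and missed the threshold (-0.61, SE 0.21, adjusted p = 0.213 with edgeR). The differences between 3-dpf and 10- or 14-dpf were not tested, since library names change between 6- and 10-dpf.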

How the results depend on the processing

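The number of members called depended on the setting in 5 of 10 comparisons. The number of all genes called moved with the setting too, at 14-dpf from 1424 lower and 865 higher to 3382 and 3467 without a sex term. At 14-dpf it was 5 and became 9 without a sex term, with all 30 samples in one model, or with 10- and 14-dpf in one model (chosen after seeing the data), 3 with library size alone, and 2 to 5 when 1 mouse was left out. At 10-dpf it was 2 and became 5 with DESeq2, 4 without a filter or with 10- and 14-dpf in one model, and 0 to 3 with 1 mouse left out. At 6-dpf it was 0 and became 1 (*Flt1*) with all 30 samples in one model, 1 (*Vwf*) with library size alone, and 0 to 5 with 1 mouse left out. For the change from 3- to 6-dpf in WT it was 8 and became 5 without a filter, 1 with library size alone, and 2 to 8 with 1 mouse left out. For the change from 10- to 14-dpf in WT it was 1 and became 0 with all 30 samples in one model, 3 with DESeq2, and 0 to 3 with 1 mouse left out. The labels name no shared animal or litter for same-numbered WT and KO mice of a day. Over 13 such pairs the correlation of their deviations from the group means ran from -0.25 to 0.39, with 5 over 0.1. These values cannot tell whether such mice shared a litter or a batch. The replicate block gave 2 calls for the change from 3- to 6-dpf in WT, 2 for that from 10- to 14-dpf, 3 at 10-dpf and 7 at 14-dpf; the causes were not tested. The differences at 3-dpf, both changes in KO and both changes of the genotype difference gave 0 calls under every alternative run. With library size alone *Pecam1*, *Tie1* and *Eng* at 6-dpf turned to 0.07, 0 and 0.14, and *Eng* turned to 0.07 with the replicate block. Leaving out KO replicate 3 turned the sign of 8 members at 3-dpf, with ranges over the mice left out of -0.07 to 0.23 for *Pecam1*, -0.06 to 0.35 for *Cdh5*, -0.05 to 0.21 for *Kdr*, -0.02 to 0.26 for *Flt1*, -0.02 to 0.30 for *Tek*, -0.03 to 0.41 for *Vwf*, -0.01 to 0.30 for *Eng* and -0.01 to 0.29 for *Esam*. The same ranges were -0.29 to 0 for *Pecam1*, -0.15 to 0.32 for *Tek* and -0.22 to 0.12 for *Eng* at 6-dpf, and -0.07 to 0.17 for *Pecam1* at 14-dpf. Of 380 values of single members under alternatives with all mice, 348 kept direction and call, 26 became calls, 2 lost the call and 4 turned. The model at 14-dpf without WT replicate 1 could not be fitted, because genotype and sex are then the same. Arms of 2 mice were assumed to vary like the rest.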
